A study of Mus musculus with 10 samples.

Results

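Cytosolic ribosomal proteins were followed here as a family of 82 genes in the table, of 22329 genes in all. They were chosen by symbol: genes named Rpl or Rps with a number and, where present, one of the endings a, x, l, l1 or al, together with Rplp0, Rplp1, Rplp2 and Rpsa. The family held 51 genes of the large subunit and 31 of the small subunit, and 7 of the 82 were paralog forms such as Rpl22l1 and Rps27l. Fau, Rack1, Rps3a1 and Rps27rt, whose products or closest relatives also belong to the ribosome, lie outside the symbol rule and are described apart. Rpl13 and Rps4l were not analysed here.

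The ribosome is built from a small subunit, which reads the mRNA, and a large subunit, which joins the amino acids, and each holds ribosomal RNA and many proteins that are needed in about equal numbers. Many mRNAs of these proteins begin with a tract of C and T, the terminal oligopyrimidine tract, through which the kinase mTOR and the protein LARP1 adjust their translation. Dividing cells, tumour cells and activated lymphocytes among them, make many ribosomes. Mammalian genomes hold many processed pseudogenes of these genes, inserted copies of their mRNAs, so that short reads can match more than 1 place.

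C57BL6/J mice carried tumours under the skin from implanted B16F10 cells, an established melanoma line of the same species. Each of 10 tumours received a single injection of 80 µg mRNA, and RNA was taken 7 days later. In the 5 control tumours (1 to 5) the mRNA encoded luciferase, written as Luc mRNA in the titles, and in the 5 cytokine mRNA tumours (6 to 10) it combined 4 mRNAs at 20 µg apiece, for single chain IL-12, IL-15sushi, GM-CSF and IFNalpha. No group without an injection was analysed here, and an implanted cell line in bulk tissue mixes melanoma cells with cells of the host. Values are TPM, the share of a library taken by a gene after correction for its length, scaled to the same total in each library. The question that the design poses is how the 2 groups differed, and for this family whether its genes moved together, in both subunits and in each tumour.

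Tumours 6 and 7 held the highest levels of T cell and macrophage markers, and tumour 7 also stood apart in other measures. Mitochondrial genes took 4.44% of the TPM in tumour 7, 8.22% to 19.2% in the other cytokine tumours, tumour 6 among them with 11.6%, and 16.2% to 27.9% in controls. Of 1534 chemosensory receptor genes, 279 were above 0 in tumour 7, 22 to 43 in the other cytokine tumours and 14 to 24 in controls. Summed over 7 T cell markers the level was 1353 and 3462 TPM in tumours 6 and 7, 57.1 to 541 TPM in tumours 8 to 10 and 3.83 to 43.3 TPM in controls. Among the controls Cd3d was at 0 in 3 tumours, Cd5 in 2 and Cd3g, Cd2 and Trac in 1 each, and no T cell marker was at 0 in a cytokine tumour. Summed over 7 macrophage and monocyte markers it was 3369 and 6481 TPM, against 559 to 2281 TPM in tumours 8 to 10 and 124 to 371 TPM in controls. Of these markers, 4 of 5 tested T cell markers and 7 of 7 macrophage markers, none at 0 in any tumour, rose. Without tumours 6 and 7 none of them was called, in a fit that called 19 of 12497 genes higher, and the median differences were then 3.29 and 2.28 on the log2 scale. The 7 melanocyte lineage markers, none of them called and none at 0 in any tumour, summed to 41.9 TPM in tumour 7, 5997 TPM in tumour 6, 2569 TPM in control tumour 1 and 4067 to 16635 TPM in the others. Tumour 10 lay near the controls, with r of 0.898 to 0.953 across 12497 genes with each control tumour, against 0.510 to 0.614 for tumour 7. The T cell sum was highest in tumour 7, then in tumours 6, 8, 9 and 10, the order in which the ribosomal protein share below rose. The mitochondrial share, the chemosensory count and the macrophage and melanocyte sums did not keep this order exactly. The part of any of these values in the ribosomal protein results was not tested. In bulk tissue, fewer cells of a type and less RNA per cell cannot be told apart.

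Levels of the 82 genes ranged from 0 to 1972 TPM as control means, although the proteins are needed in about equal numbers. The median was 79.4 TPM, with 16 genes over 500 TPM and 10 under 10 TPM. Across all 10 tumours the most abundant were Rpl32, a widely used reference gene, Rps26, whose protein lies where the mRNA leaves the small subunit, Rpl22, an RNA-binding protein needed for T cell development in mice, and Rpl4, whose protein helps to line the peptide exit tunnel. Their control means were 1896 ± 430 TPM for Rpl32, 1972 ± 491 TPM for Rps26, 1388 ± 137 TPM for Rpl22 and 1324 ± 155 TPM for Rpl4 (SD, n = 5 each). At the other end Rps6, the substrate of S6 kinase, was at 6.53 ± 3.70 TPM and Rpl3 at 7.27 ± 3.85 TPM. Rpl17, a further protein of the exit tunnel, was listed at 0 in 7 of 10 tumours, with 1.84, 1.02 and 1.72 TPM in tumours 2, 4 and 6.

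These differences in level went in part with how much of each mRNA is shared with other genes. In the GENCODE mouse annotation, 79 of the 82 mRNAs shared at least 1 stretch of 50 bases with another gene, and in 51 fewer than 50% of the stretches were found in no other gene. The median member shared a stretch with 8 pseudogenes, and Rpl7a with 121. The 27 genes with the lowest share of unshared stretches (1.35% to 25.7%) had a median control level of 35.3 TPM and none over 500 TPM, while the 27 with the highest share (58.4% to 100%) had a median of 186 TPM and 10 over 500 TPM. Across the 82 genes, which are not independent replicates and share their libraries, the share of unshared stretches had a Spearman rho of 0.34 with the control level, and the number of pseudogenes one of -0.38. Rps6 had 15.4% unshared and 14 pseudogenes, Rpl17 had 21.3% and 50, and Rpl4 had 83.5% and 1. There were exceptions: Rps2, with 21.0% unshared, had a control mean of 406 TPM. Under 10 TPM were 6 of the 27 genes with the lowest share and 3 of the 27 with the highest. Those 3 were the paralog forms Rpl3l, Rpl10l and Rpl39l, described below. How reads with several matches were counted is not given in the sources used here, so levels of members with few unshared stretches are uncertain.

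**Figure D1:**
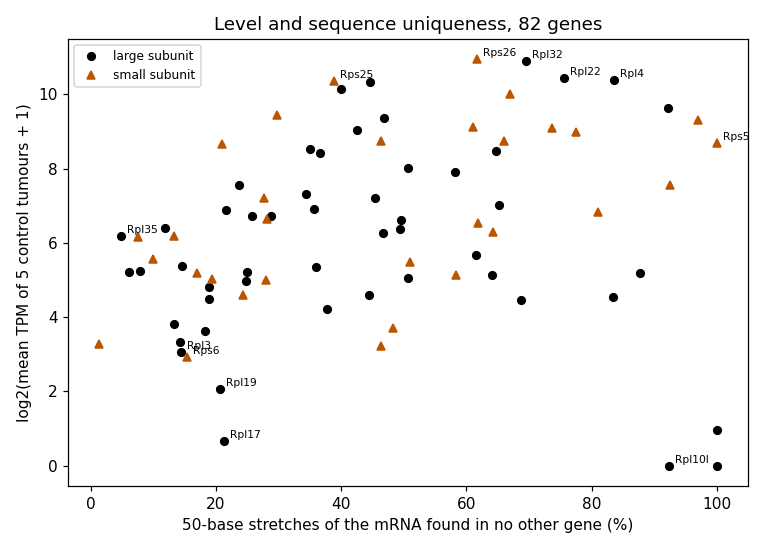
Each point is 1 of 82 ribosomal protein genes; the horizontal axis gives the percentage of 50-base stretches of its mRNA that no other annotated gene shares, and the vertical axis log2 of the mean TPM of the 5 control tumours plus 1. Circles are large and triangles small subunit genes; no gene at or under 25.7% exceeded 500 TPM, while Rps26 (1972 TPM) and Rpl32 (1896 TPM) lay over 60%.

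Start sites were read from RefSeq (build GRCm38.p6), which had an entry for 62 of the 82 genes. The window ran from 10 bases before to 20 after the annotated start. An unbroken run of at least 8 letters that are all C or T on the sense strand was found in 24 of the 62 (38.7%), against 14.1% of the tested genes with an entry. The windows of 10 members at both ends of the comparison between groups are given, 5 with such a run, in capitals, and 5 without one, since the run was found at both ends. Of the members that fell, Rps13 is among them, and Rps27a and Rps14 are named only.
Rps26, chr10:128626487-128626516, minus strand: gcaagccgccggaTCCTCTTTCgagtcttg
Rpl38, chr11:114668570-114668599, plus strand: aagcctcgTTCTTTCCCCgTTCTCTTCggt
Rps24, chr14:24490668-24490697, plus strand, first start: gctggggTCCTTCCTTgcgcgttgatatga
Rps10, chr17:27635225-27635254, minus strand: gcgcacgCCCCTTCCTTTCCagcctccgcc
Rps18, chr17:33955646-33955675, minus strand: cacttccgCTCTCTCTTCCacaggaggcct
Rps7, chr12:28635934-28635963, minus strand: cggtttccacccacctacttccgctgtccc
Rps13, chr7:116334171-116334200, minus strand: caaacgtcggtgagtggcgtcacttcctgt
Rpl27, chr11:101442235-101442264, plus strand: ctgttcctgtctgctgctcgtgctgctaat
Rpl37a, chr1:72711250-72711279, plus strand: ctcgccggtctaaaaccgcgcatgcgcatt
Rpl23, chr11:97782420-97782449, minus strand: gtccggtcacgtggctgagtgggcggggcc

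Few members changed between the groups by the test over all genes, and those that did were lower. With limma on log2(TPM + 1) and Benjamini-Hochberg adjustment over 12497 genes, 4 of the 78 members tested fell (5.13%), against a background of 3.02% of all genes tested, and 0 rose, against a background of 7.41%. Rps27a, Rps13 and Rps14 were among them. At an unadjusted p under 0.05, 31 members were lower (39.7%, against 16.1% of all genes tested) and 2 were higher (2.56%, against 14.4%). The estimates nonetheless leaned one way: 65 of 78 members (83.3%) had a difference below 0, against 60.3% of all genes tested, and the median difference was -0.62 on the log2 scale, against -0.18 over all genes. All 5 cytokine mRNA tumours lay below all 5 controls in 10 members (12.8%), against a background of 3.78%, and above them in 0, against a background of 5.45%. The other 4 members, Rpl10l, Rpl17, Rpl39l and Rpl3l, did not reach a TPM of 1 in 5 tumours and were not tested.

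The calls depended on single tumours and on the scaling. Without tumour 10, 29 members were called lower (37.2%, against a background of 12.8%) and 1, Rps24, higher (1.28%, against 13.2%), while without control tumour 2, 3, 4 or 5, or without cytokine tumour 6 or 9, no member was called, in fits that called 0.368% to 1.09% of all genes lower. The count of lower members was 1 without control tumour 1 (1.28%, against 1.14% of all genes), 2 without tumour 7 (2.56%, against 1.66%) and 3 without tumour 8 (3.85%, against 0.752%). Without tumours 6 and 7 together it was 0, in a fit that called 1 of 12497 genes lower. Without tumour 7 alone, 1 member, Rpl35, was called higher (1.28%, against 5.23% of all genes). The median difference kept its sign, at -0.73 without tumour 10 and -0.34 without tumours 6 and 7, beside -0.22 and -0.03 over all genes. With the libraries rescaled to leave out mitochondrial and receptor segment genes, 11 members were called lower (14.1%, against a background of 5.37%) and 0 higher (against 6.63%). With library quality weights, 21 were lower (26.9%, against 9.41%) and 1, Rpl35, was higher (1.28%, against 12.7%).

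**Figure D2:**
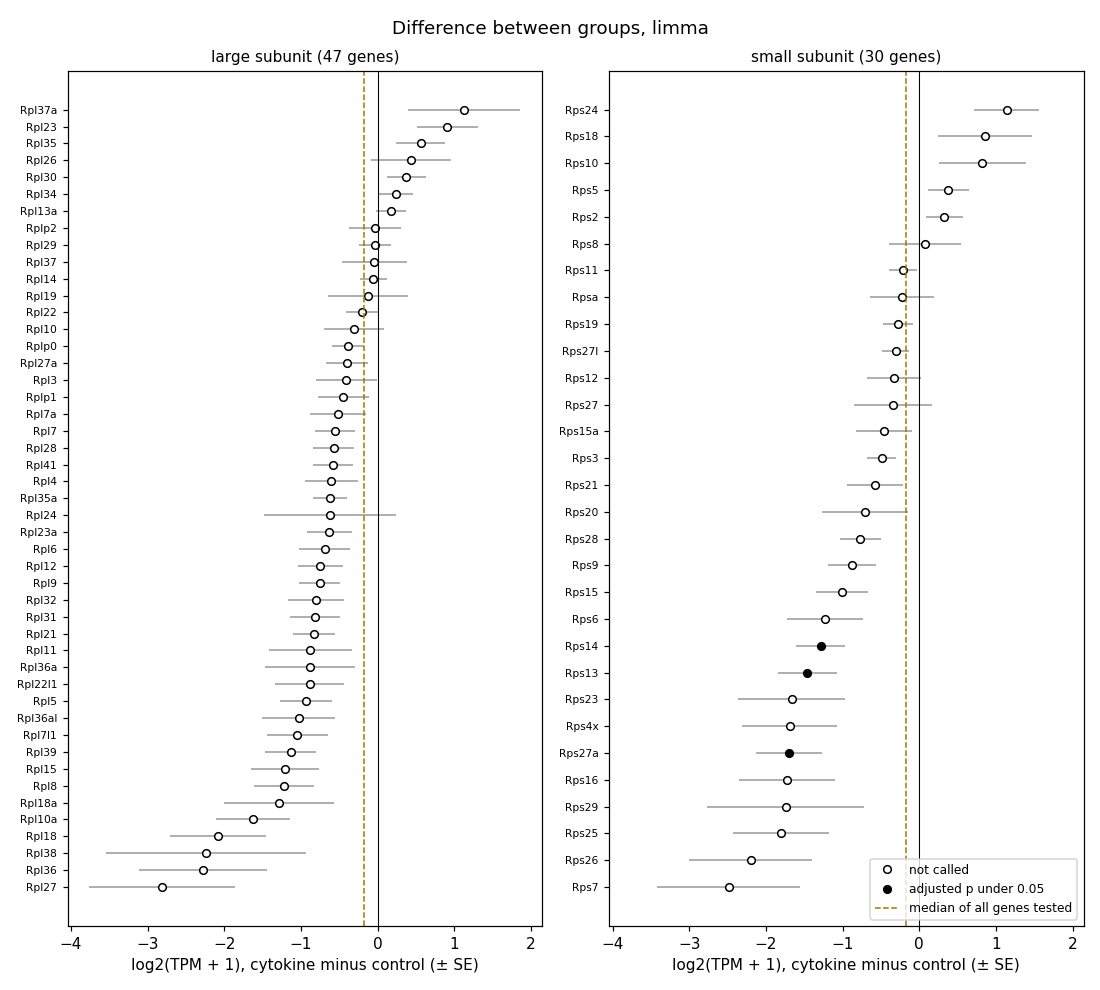
Each point is the difference in log2(TPM + 1), cytokine minus control mRNA tumours, of 1 of 77 ribosomal protein genes tested with limma, with its SE as a bar, for 47 large subunit genes on the left and 30 small subunit genes on the right. Filled points passed an adjusted p under 0.05, and the dashed line is the median of all 12497 genes (-0.18); most points lie left of it and the 3 filled ones are small subunit genes.

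Rps27a encodes ubiquitin fused to a small subunit protein, so its mRNA supplies both. It was at 41.5, 37.8, 25.6, 23.7 and 25.7 TPM in controls and at 10.2, 2.21, 19.7, 11.6 and 7.49 TPM in cytokine tumours. The groups did not overlap, and tumour 10, near the controls in most members, was the second lowest here. Rps27a fell by 1.70 ± 0.43 (SE) on the log2 scale (limma adjusted p = 0.0321), and leaving out 1 tumour ended this call in 7 of 10 fits. Over those 10 fits its difference ranged from -1.98 to -1.31.

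Rps13 and Rps14 encode proteins of the small subunit, and the human RPS14 gene is known from the 5q deletion in myelodysplastic syndrome. Rps14 was at 139.8, 76.5, 85.5, 66.6 and 89.9 TPM in controls and at 19.3, 24.6, 52.6, 44.1 and 52.5 TPM in cytokine tumours. All 5 cytokine tumours lay below the lowest control. Rps14 fell by 1.29 ± 0.32 (SE) on the log2 scale (limma adjusted p = 0.0301), and the call ended in 8 of 10 such fits. The difference ranged from -1.42 to -1.07 over them. Rps13 was at 44.1, 33.2, 24.7, 38.3 and 36.4 TPM in controls and at 7.05, 7.79, 7.78, 17.5 and 31.0 TPM in cytokine tumours. Here tumour 10 lay inside the control range and the other 4 below it. Rps13 fell by 1.46 ± 0.38 (SE) on the log2 scale (limma adjusted p = 0.0361), and the call ended in 9 of 10 such fits. Its difference there ranged from -1.79 to -1.29.

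**Figure D3:**
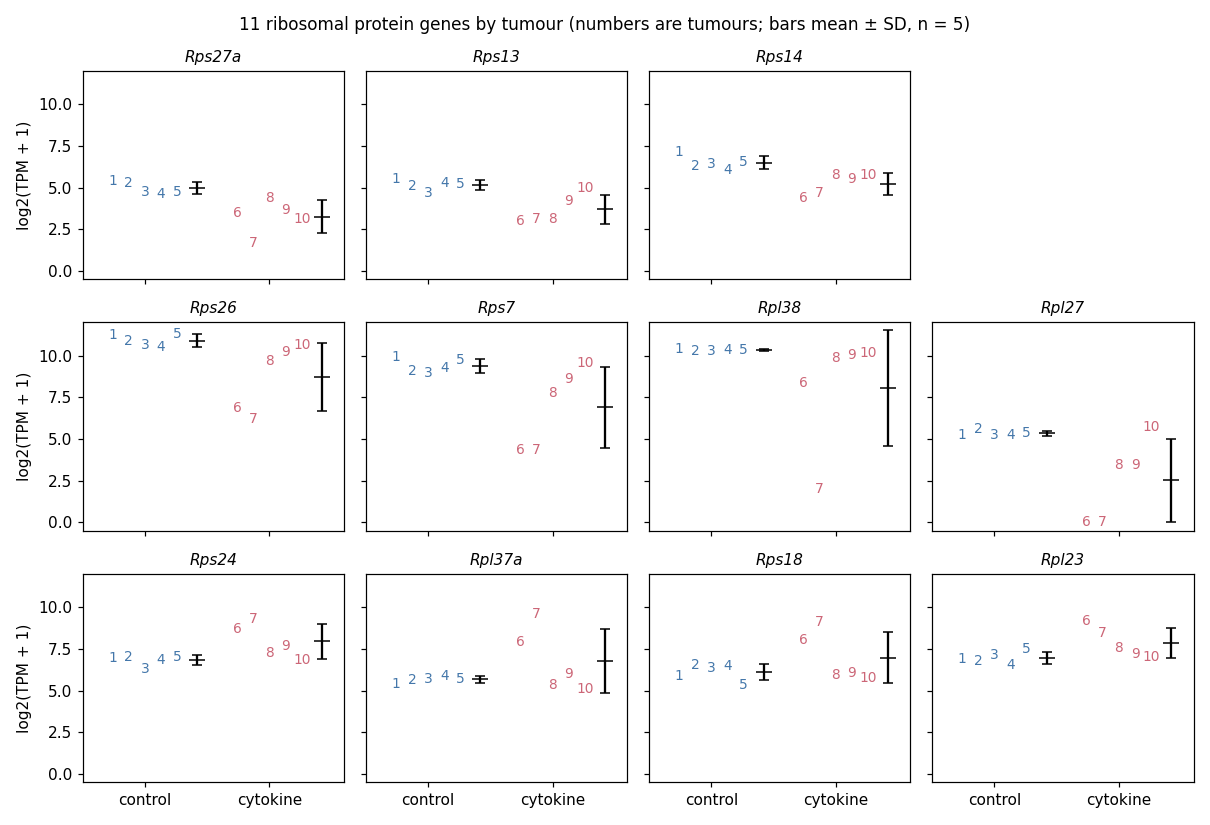
Values of 11 ribosomal protein genes, log2(TPM + 1) on the vertical axis, with each number marking the tumour of that number, controls in blue and cytokine mRNA tumours in red, and the mean ± SD (n = 5) in black. The top row holds Rps27a, Rps13 and Rps14, which fell; in the middle row tumours 6 and 7 lie far below the controls, and in the bottom row they lie above them.

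The lowest estimates belonged to 6 members that did not pass the test: Rpl27, Rps7, Rpl36, Rpl38, Rps26 and Rpl18, with differences of -2.81 to -2.08 on the log2 scale and limma adjusted p of 0.0556 to 0.257. Rps26 was at 2380, 1904, 1567, 1443 and 2565 TPM in controls and at 113, 71.8, 814, 1178 and 1612 TPM in cytokine tumours. Tumours 6 and 7 were far below the controls and tumour 10 among them. Rps7, a gene whose human counterpart is mutated in Diamond-Blackfan anaemia, an inherited failure of red cell formation, was at 981, 548, 493, 618 and 849 TPM in controls and at 19.4, 19.3, 213, 380 and 749 TPM in cytokine tumours. It followed the same order, with tumour 10 inside the control range.

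Rpl38, whose loss alters skeletal patterning in mice, was at 1351, 1249, 1243, 1296 and 1292 TPM in controls and at 322, 3.05, 923, 1070 and 1149 TPM in cytokine tumours. It had the narrowest relative control range of these 6 genes, and tumours 6 and 7 differed from each other as well as from the rest. Rpl27 was at 36.3 to 47.1 TPM in controls and was listed at 0 in tumours 6 and 7, with 9.90, 10.0 and 52.7 TPM in tumours 8, 9 and 10. Rpl36 was likewise listed at 0 in tumours 6 and 7, against 13.04 to 30.5 TPM in controls. Rpl18 was at 5.81 and 8.66 TPM in tumours 6 and 7, against 96.3 to 117 TPM in controls and 98.8 TPM in tumour 10. Without tumour 10, 5 of these 6 passed the test, with Rpl38 the exception (adjusted p = 0.154). Without tumours 6 and 7 none did, and the differences were -1.12 to -0.30.

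Against that tendency, 13 members had estimates above 0, and the 6 highest were Rps24, Rpl37a, Rpl23, Rps18, Rps10 and Rpl35. None passed the test, with limma adjusted p of 0.101 to 0.350. Rps24 was at 121, 130, 78.3, 113 and 127 TPM in controls and at 415, 637, 154, 205 and 112 TPM in cytokine tumours, a difference of 1.14 ± 0.43 (SE) on the log2 scale. Tumours 6 to 9 lay above all controls and tumour 10 did not. Rpl37a was at 40.4 to 58.9 TPM in controls and at 244, 773, 40.3, 62.0 and 33.4 TPM in cytokine tumours. Rps18, in the head of the small subunit, was at 40.3 to 93.4 TPM in controls and at 259.8, 564, 59.8, 66.7 and 53.3 TPM in cytokine tumours. In both genes tumours 6 and 7 alone lay well above the controls.

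Rps10 was at 46.5 to 88.0 TPM in controls and at 607.6 TPM in tumour 7 and 164 TPM in tumour 6. The remaining tumours, at 54.6 to 73.0 TPM, lay inside the control range. Rpl23, whose protein can bind the p53 regulator MDM2, was at 91.7 to 183 TPM in controls and at 578 and 347 TPM in tumours 6 and 7. Rpl35, at the rim of the exit tunnel, was the one of the 6 in which tumour 7 did not stand high: it was at 46.6 TPM there, at 152, 114, 136 and 114 TPM in tumours 6, 8, 9 and 10, and at 48.2 to 87.1 TPM in controls. Without tumours 6 and 7 the differences of Rps10, Rps18 and Rpl37a were -0.09, -0.20 and -0.19 and those of Rps24, Rpl23 and Rpl35 were 0.44, 0.28 and 0.76.

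**Figure D4:**
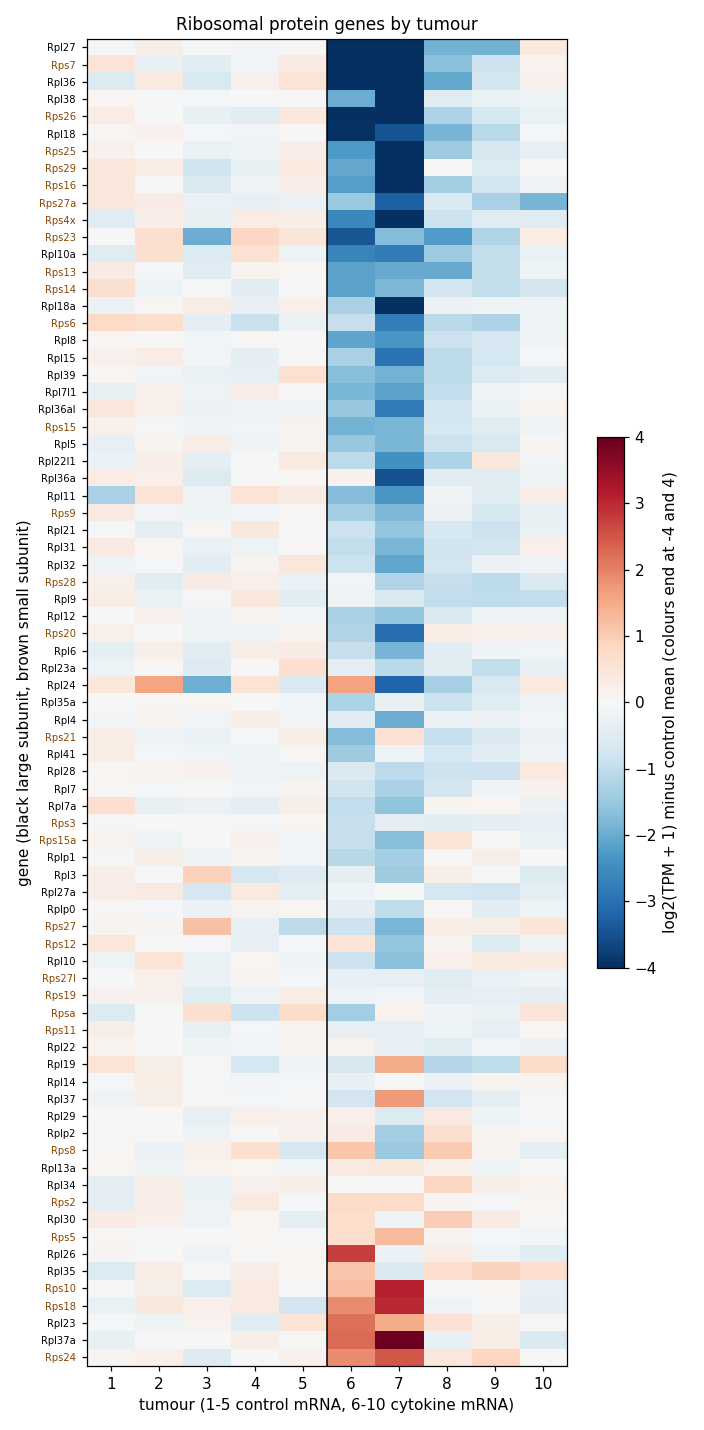
Rows are 77 ribosomal protein genes tested, ordered by the difference between groups, and columns are tumours 1 to 10; colour gives log2(TPM + 1) minus the mean of the 5 control tumours, with colours ending at -4 and 4. Tumours 6 and 7 hold the deepest colours in both directions, tumours 8 and 9 are paler, and tumour 10 resembles the controls.

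Tumour by tumour, the family was lowest in tumour 7 and then in tumour 6. The 82 genes summed to 2.41%, 2.28%, 1.96%, 2.20% and 2.46% of the TPM in controls and to 1.46%, 1.30%, 1.65%, 1.82% and 2.04% in cytokine tumours. Group means were 2.26% ± 0.20 and 1.66% ± 0.29 (SD, n = 5), and tumour 10 lay above control tumour 3. As a share of the TPM left without mitochondrial genes the sums were 2.67% to 3.41% in controls and 1.65%, 1.36%, 1.80%, 2.10% and 2.52% in cytokine tumours, which did not overlap.

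The median member differed from the control mean by -0.91 and -1.59 on the log2 scale in tumours 6 and 7, by -0.49 and -0.36 in tumours 8 and 9 and by -0.13 in tumour 10. Over all genes tested these medians were -0.26, -0.45, -0.04, -0.01 and 0.02. In tumours 6 to 10, 51, 59, 46, 42 and 17 of the 78 members lay below all 5 controls (65.4%, 75.6%, 59.0%, 53.8% and 21.8%), against 40.5%, 48.7%, 27.9%, 25.3% and 11.9% of all genes. Above all controls lay 17, 11, 13, 4 and 5 members (21.8%, 14.1%, 16.7%, 5.13% and 6.41%), against 24.2%, 26.3%, 24.9%, 24.8% and 16.0% of all genes. The members thus lay below the controls in a larger share than genes at large in each cytokine tumour, in tumours 8 and 9 as well as in tumours 6 and 7.

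Members also kept their proportions to each other less well in tumours 6 and 7. The SD over the 78 members of their differences from the control mean was 1.56 in tumour 6, 2.10 in tumour 7, 0.73, 0.55 and 0.37 in tumours 8 to 10, and 0.36 to 0.53 in controls, each set against the other 4. Over all genes tested the SD was 1.35 and 1.85 in tumours 6 and 7, 0.56 to 1.08 in tumours 8 to 10 and 0.54 to 0.82 in controls. The members thus scattered less than genes at large in each control and in tumours 8 to 10, and more in tumours 6 and 7. The median control level was 79.4 TPM over the members and 22.5 TPM over all genes tested. The part of level in this contrast was not tested. Group means of the SD over members were 0.42 and 1.06, and the cytokine mean was 0.55 without tumours 6 and 7.

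Across the 78 members, which share a library and are not independent, levels correlated with each control tumour at r of 0.681 to 0.716 for tumour 7, 0.778 to 0.815 for tumour 6 and 0.938 to 0.985 for tumours 8 to 10. Control tumours correlated with each other at 0.961 to 0.987, and tumours 6 and 7 with each other at 0.859. Some members differed by more than the family between tumours 6 and 7: Rpl26, chosen after its values were seen, was at 716 and 89.2 TPM, and Rps21, chosen likewise, at 162 and 795 TPM, against 95.5 to 111.5 TPM and 451 to 653 TPM in controls.

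**Figure D5:**
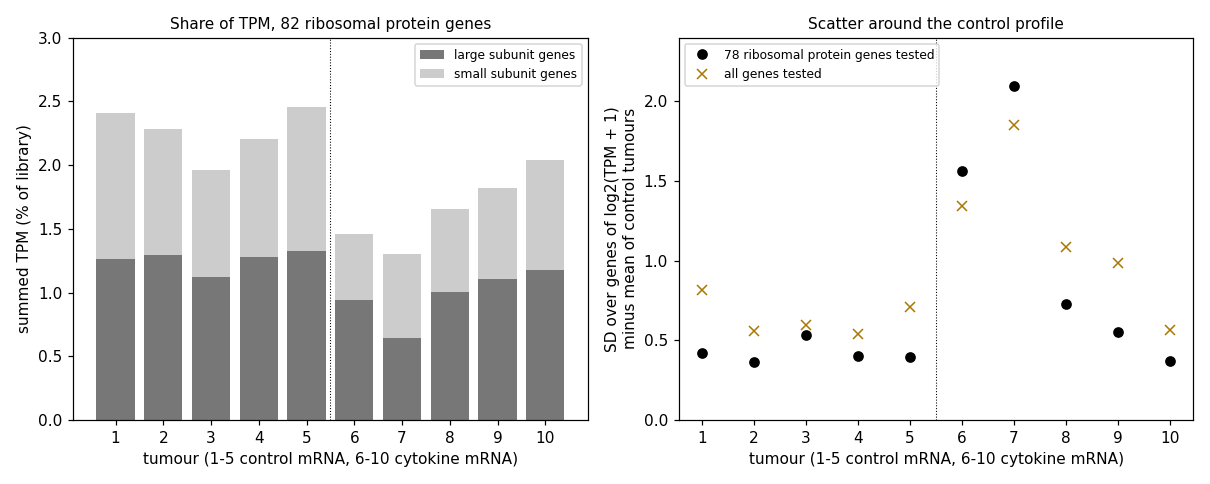
Left, summed TPM of 82 ribosomal protein genes as a percentage of the library in tumours 1 to 10, large subunit genes in dark and small subunit genes in light grey. Right, the SD over genes of log2(TPM + 1) minus the mean of the controls (for a control, of the other 4), with circles for 78 ribosomal protein genes and crosses for 12497 genes; circles reach 1.56 and 2.10 in tumours 6 and 7 and lie under the crosses in the other tumours.

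Large and small subunit genes had similar median differences. The median difference was -0.62 over 47 large subunit genes, of which 40 were below 0, and -0.71 over 31 small subunit genes, of which 25 were below 0. Of the large subunit genes 0 were called and 17 had an unadjusted p under 0.05, and of the small subunit genes 4 were called and 16 had one. Over all genes tested, 3.02% were called lower and 30.5% had an unadjusted p under 0.05, and whether the shares called differ was not tested. The mean of large minus small subunit genes, in which the scaling of a library cancels, was -0.60, -0.34, -0.38, -0.36 and -0.42 in controls and -0.11, -0.39, -0.39, -0.25 and -0.26 in cytokine tumours on the log2 scale. The ranges overlapped, with group means of -0.42 ± 0.11 and -0.28 ± 0.12 (SD, n = 5). Large subunit genes took 1.12% to 1.33% of the TPM in controls and 0.640% to 1.17% in cytokine tumours, and small subunit genes 0.837% to 1.15% and 0.520% to 0.866%.

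Structural groups showed no member called apart from those above. The acidic stalk of the large subunit, which recruits the elongation factors, is made of the products of Rplp0, Rplp1 and Rplp2. Rplp0 was at 239 ± 23.4 and 187 ± 46.2 TPM, Rplp1 at 1126 ± 138 and 902.5 ± 399 TPM and Rplp2 at 370 ± 34.7 and 397 ± 164 TPM in control and cytokine tumours (SD, n = 5). Their differences of -0.39, -0.45 and -0.04 on the log2 scale did not pass (limma adjusted p of 0.231, 0.366 and 0.949), and that of Rplp2 was 0.14 with median-ratio scaling. Rpsa, a small subunit protein also known as the laminin receptor, was at 8.31 ± 4.26 and 6.92 ± 3.26 TPM. Rpl5 and Rpl11, which carry 5S rRNA into the large subunit and can bind MDM2, differed by -0.94 and -0.88. Over 8 listed genes of the exit tunnel and its rim, 7 were tested and none passed, with a median of -0.60. Over 17 genes mutated in Diamond-Blackfan anaemia in humans the median was -0.88, with 4 of the 17 above 0.

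Paralog forms were compared with their parent genes. Rpl3l, known from striated muscle, and Rpl10l, known from the testis, were near or at 0: Rpl10l was listed at 0 in all 10 tumours, and Rpl3l reached 4.26 TPM in control tumour 1 and 2.87 TPM in tumour 7. Rpl39l, a form abundant in the testis, was listed at 0 in 8 tumours and at 5.20 TPM in both tumours 6 and 7. Its parent Rpl39 was at 22.1 ± 6.56 and 10.1 ± 4.72 TPM, with no overlap between groups (limma adjusted p = 0.0518).

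The other 4 forms were expressed and none passed the test. Rps27l, a p53 target in human cells, was at 503 ± 59.3 and 406 ± 36.3 TPM, far above its parent Rps27 at 8.71 ± 5.66 and 6.85 ± 4.01 TPM. Only 1.35% of the Rps27 mRNA was unshared, against 77.6% for Rps27l, so the order of this pair is uncertain. Rpl36al was at 340 ± 76.7 and 202 ± 128 TPM, and its X-linked parent Rpl36a at 40.5 ± 8.43 and 28.0 ± 15.8 TPM. Of the Rpl36al mRNA 36.7% was unshared and of the Rpl36a mRNA 14.5%, so the order of this pair is uncertain too. Rpl22l1 was at 158 ± 35.2 and 103 ± 71.3 TPM while Rpl22 was at 1388 ± 137 and 1213 ± 208 TPM. Rpl7l1 was at 35.5 ± 6.19 and 19.4 ± 12.005 TPM, and Rpl7 at 75.4 ± 4.72 and 54.2 ± 21.8 TPM. The log2 ratio of form to parent, with 1 TPM added to each, was -3.15 ± 0.28 and -3.83 ± 1.05 (SD, n = 5) for Rpl22l1, 3.04 ± 0.22 and 2.89 ± 0.92 for Rpl36al, and 5.87 ± 0.88 and 5.91 ± 0.95 for Rps27l, differences smaller than the spread in the cytokine tumours. For Rpl7l1 it was -1.08 ± 0.31 and -1.57 ± 0.44, a difference of -0.49 that was larger than either SD, with overlapping groups. For Rpl39l it was -4.49 ± 0.37 and -2.30 ± 2.06, with -0.14 and 0.02 in tumours 6 and 7 and -4.04 to -3.43 in tumours 8 to 10. In the controls and tumours 8 to 10 Rpl39l was listed at 0, so the ratio there gives the level of Rpl39 alone. Other parent genes, Rps4x at 147 ± 35.8 and 62.6 ± 44.5 TPM and Rpl10 at 37.1 ± 9.50 and 33.4 ± 16.9 TPM, did not pass either.

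Besides Rpl27, Rpl36, Rpl17 and the paralog forms, 4 members were listed at 0 in 1 tumour each. They were Rpl24, Rps6 and Rps29 in tumour 7 and Rps23 in tumour 6. Rps29 was at 41.3 to 98.9 TPM in controls and 75.0 TPM in tumour 8. Rps6 was at 2.69 to 10.8 TPM in controls, Rpl24 at 1.37 to 26.3 TPM and Rps23 at 1.72 to 18.3 TPM, so the control values of these 3 were themselves low and spread.

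Among ribosome genes outside the symbol rule, 4 were tested and Fau, which encodes a ubiquitin-like protein fused to a small subunit protein, fell. It was at 47.1, 23.2, 26.6, 24.4 and 25.5 TPM in controls and at 16.1, 10.2, 15.5, 7.41 and 19.2 TPM in cytokine tumours, without overlap, a fall of 1.07 ± 0.30 (SE) on the log2 scale (limma adjusted p = 0.0440; not called in 9 of 10 fits that leave out 1 tumour). Rack1, a signalling scaffold bound to the small subunit, was at 1490 to 1969 TPM in controls and at 3433, 4023, 1689, 1975 and 1603 TPM in cytokine tumours (adjusted p = 0.303). It was high in tumours 6 and 7, where Rps26 and Rps7 were low. Rps3a1 was at 108 ± 25.8 and 88.7 ± 39.6 TPM.

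No gene was called in the lists of elongation factors, initiation factors, RNA polymerase I and ribosome assembly. Of 8 elongation factor genes 0 were called (4 at an unadjusted p under 0.05), with a median of -0.74, and Eef1a1, which brings aminoacyl-tRNA to the ribosome, was at 1760 ± 269 and 1155 ± 487 TPM. Of 28 initiation factor genes 0 were called (6 at an unadjusted p under 0.05; median -0.29). Of 15 genes of RNA polymerase I and its factors, which transcribe ribosomal RNA, 0 were called (3 at an unadjusted p under 0.05; median -0.35). Of 71 genes of ribosomal RNA processing and ribosome assembly 0 were called (18 at an unadjusted p under 0.05; median -0.38), with 64 below 0, and Npm1, a nucleolar chaperone, was at 996 ± 150 and 571 ± 218 TPM. Of all genes tested, 3.02% were called lower and 7.41% higher, and 30.5% had an unadjusted p under 0.05. These medians stand beside -0.62 for the ribosomal protein genes and -0.18 for all genes.

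In the list of the Myc family and translation control, 2 of 16 tested genes rose and 2 fell, against 7.41% and 3.02% of all genes tested. Max, the partner of Myc, rose from 128 ± 28.1 to 321 ± 175 TPM (251 TPM without tumour 7) and Mxd1, which competes with Myc for Max, from 7.61 ± 1.33 to 27.3 ± 15.9 TPM (20.6 TPM without tumour 7). Akt1s1, an inhibitor subunit of the mTOR complex that controls ribosomal protein mRNAs, fell from 106 ± 27.0 to 38.9 ± 26.4 TPM, and the fourth was Eif4ebp2, an inhibitor of cap-dependent initiation. Leaving out 1 tumour ended the calls of Max and Akt1s1 in 9 of 10 fits each and that of Mxd1 in 4.

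Sequence features had correlations near 0 with the difference between groups. The Spearman rho across 78 members with the difference was 0.02 for the share of unshared stretches, 0.04 for the number of pseudogenes, 0.07 for the length of the mRNA and 0.02 for its GC content. The 24 tested members with a run of C and T in the window, as printed above for Rps26 and Rps24, had a median difference of -0.43 and a range from -2.24 to 1.14. The run could lie before or after the annotated start, so it need not be a terminal oligopyrimidine tract of the mRNA. The 35 tested members without one had a median of -0.75 and a range from -2.81 to 1.13. RefSeq starts can lie some bases away from those used in a tissue, so a run outside the window was not seen.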

How the data were processed

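The authors deposited 1 table of TPM with a column per tumour, scaled to the same total in each. STAR and the build GRCh38 are named, per the submitters' processing notes; the build is human and the samples are mouse, so the authors' build is left unstated and coordinates here are those of RefSeq GRCm38.p6. Per the labels' protocols, polyA RNA and stranded NuGEN libraries were used. For counting, annotation and filters, the steps were not given in the sources used here. Since TPM carries no depth, the depth of each library is unknown and no counting interval can be given. Because TPM are shares, a rise of abundant genes lowers all others.

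Columns were matched to samples by the library name in the titles, which also give the group. The 12497 genes that reached 1 TPM in 5 or more libraries were analysed as log2(TPM + 1), with a pseudocount of 1, by limma 3.58.1 in R 4.3.3 (lmFit, eBayes with a trend, 2-sided), Benjamini-Hochberg adjustment over all of them and a call at an adjusted p under 0.05. Fold changes on this scale understate changes of low genes. The step was tested on simulated data, with independent genes and the same spread of a gene in both groups. In the tumours the SD was larger in the cytokine group in 92.3% of the tested members and 72.3% of all genes tested. The simulation did not cover such unequal spread. Scores over the family (summed TPM, scatter, large minus small subunit) are given with no p. Unshared stretches were counted on both strands, in 1 principal transcript per gene against all transcripts of GENCODE release M21, with 50 bases as an assumed read length; copies in introns or between annotated genes were not seen. Members named are the called ones, the 6 highest and 6 lowest differences, the 4 most abundant, the 6 most variable, those listed at 0, the paralog pairs, the stalk genes and Rpsa; of the other lists, up to 3 called genes or the most abundant. The members and lists were chosen with earlier results of these data known. Alternatives tried were the pseudocount, the filter, 3 scalings, the variance prior, library weights and tumours left out. Some items are counted but not reported by name here.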

Additional observations from a re-analysis of the deposited data

Results flagged for a closer look

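Of 120 group values checked, 7 held a tumour far from the other 4 of its group (gap over range above 0.71); chance alone flags about 1 in 20. In the cytokine group these were Rpl27 at 52.7 TPM in tumour 10, Rps10 at 607.6 TPM and Rpl37a at 773 TPM in tumour 7, Rpl3l at 2.87 TPM in tumour 7 and Rpl17 at 1.72 TPM in tumour 6. In the control group they were Rpl3l at 4.26 TPM and Fau at 47.1 TPM, both in tumour 1.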

How the results depend on the processing

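The count of members called lower, 4 as reported, was 7 with a pseudocount of 5, 2 with no filter on low values and 7 after rescaling without the 50 most abundant genes, where 3.73%, 0.971% and 4.62% of all genes were called lower. It was 11 with mitochondrial genes and receptor segments left out of the scaling (5.37% of all genes), 21 with library quality weights (26.9%, against a background of 9.41%), 0 to 29 with 1 tumour left out (0.368% to 12.8% of all genes) and 0 without tumours 6 and 7 (1 of 12497 genes). The count called higher, 0 as reported (7.41% of all genes), was 1 with library quality weights (12.7% of all genes). With 1 tumour left out it was 0 to 1 (2.57% to 13.2% of all genes). The median of all genes was -0.02 with median-ratio scaling, -0.28 and -0.32 with the 2 rescalings, and that of the members -0.47, -0.73 and -0.76. The group difference in summed share, -0.61 percentage points, was -1.06 and -1.0002 with these rescalings. The difference in scatter, 0.64, was 0.13 without tumours 6 and 7 and 0.38 without tumour 7. The large minus small subunit difference, 0.14, was 0.05 with medians in place of means.

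Of 38 tested members named, some changed sign. Without tumours 6 and 7 the differences were -0.0861 for Rps10, -0.20 for Rps18, -0.19 for Rpl37a, 0.31 for Rpl10, 0.31 for Rps27, 0.0819 for Rplp1, 0.29 for Rplp2 and 0.0382 for Rpsa. With library quality weights they were 0.0020 for Rpl3, 0.0218 for Rps27 and 0.28 for Rplp2, and with median-ratio scaling 0.14 for Rplp2. With 1 tumour left out they ranged from -1.18 to 0.0213 for Rpl24, -0.48 to 0.0296 for Rpl10, -0.61 to 0.0286 for Rps27, -0.22 to 0.30 for Rplp2 and -0.43 to 0.0639 for Rpsa. The causes were not tested. No paired analysis was possible because the tumours of the 2 groups share no number. Unknown depth limits values listed at 0.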
